A study of Mus musculus with 14 samples.

Results

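The genes described here are 32 genes of the endoplasmic reticulum (ER) stress response, also called the unfolded protein response, found by symbol among the 17656 genes of 14 mouse liver RNA-seq libraries. All 32 were listed. They were sorted by role into 15 genes of protein folding in the ER, 5 of ER-associated degradation (ERAD) and translocation into the ER, 5 sensors and membrane-bound factors, and 7 of the branch from the kinase PERK to the transcription factor ATF4. The first 20 are mainly targets of the ATF6 and XBP1 branches. The livers came from mice aged 8 weeks on the C57BL/6 background, either WT or labelled as knockout for Ythdf1 (Ythdf1-/-, here KO), a reader of m6A-marked RNA. Mice received saline or 8 mg/kg of concanavalin A (ConA), a plant lectin that activates T cells and causes hepatitis, through the tail vein, and livers were taken at 8 h. Saline was given to 3 WT and 3 KO mice and ConA to 4 WT and 4 KO mice, with 1 liver library per mouse. The KO strain was made with CRISPR/Cas9. The study asked how loss of YTHDF1 alters ConA hepatitis, and the comparisons below ask how the ER stress genes responded to ConA and whether that response differed between the genotypes.

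The ER folds and modifies secreted and membrane proteins, and the hepatocyte, which secretes most plasma proteins, has a large ER. When unfolded proteins accumulate there, the sensor IRE1 (gene Ern1) splices the Xbp1 mRNA, the sensor ATF6 is cut by Golgi proteases into a transcription factor, and the sensor PERK (gene Eif2ak3) phosphorylates the translation factor eIF2a. XBP1 and ATF6 raise chaperones and degradation factors, while phosphorylated eIF2a favours translation of ATF4, which raises genes of amino acid supply and the proapoptotic factor CHOP (gene Ddit3). ATF6 and XBP1 are cleaved or spliced after transcription, so mRNA levels report the target genes more directly than the activity of the sensors.

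The libraries were compared as TPM, a gene's length-corrected share of 1000000 transcripts, and differences are given as log2 fold changes on log2(TPM + 1), which understates the change of genes with low TPM. The mRNA of Ythdf1 ranged from 12.03 to 13.9 TPM after saline and from 18.7 to 25.6 TPM after ConA in WT, and in the livers labelled KO from 18.4 to 20.8 TPM and from 15.5 to 26.2 TPM. It was called higher in KO than in WT after saline (log2 fold change 0.53 ± 0.092, adjusted p 0.0181, limma), and the groups overlapped after ConA, so its level does not check the label. An edit that leaves the transcript in place is not seen in a gene's summed TPM, so the genotype rests on the label in every comparison below. WT saline replicates 2 and 3 differed by a median of 0.078 on the log2 scale over 10643 genes, the smallest of 18 pairs within groups, against 0.127 for the next. The replicates numbered 3 of both ConA groups lay farthest from the others of their group, with median differences of 0.386 to 0.402 for WT and 0.262 to 0.404 for KO. Hepatocyte markers summed to 113714 to 133095 TPM after saline and 58640 to 82890 after ConA in WT, and to 106037 to 125133 and then 53875 to 66360 in KO, with all 6 listed markers above 0 in every library. Neutrophil markers summed to 9.54 to 11.0 TPM after saline and 315 to 554 after ConA in WT, and to 5.27 to 10.7 and then 409.5 to 944 in KO, with 5 or 6 of 6 markers above 0 in the saline livers and all 6 after ConA. S100a8 and S100a9 made up most of this sum after ConA. Of the 6 markers only Ly6g did not rise in WT, with 0.57 to 5.04 TPM after saline and 0.18 to 1.64 after ConA. Kupffer cell and macrophage markers summed to 50.7 to 82.1 TPM after saline and 7.71 to 29.3 after ConA in WT, and to 22.9 to 52.1 and then 9.44 to 24.5 in KO. In KO, Clec4f, Vsig4 and Csf1r were lower after ConA, but not every marker was. There Cd68 had 2.50 to 4.31 TPM after saline and 5.19 to 7.83 after ConA, and Marco 0.71 to 1.88 and 1.24 to 3.74. Plasma and B cell markers, of cells with a large ER of their own, stayed between 0.69 and 3.60 TPM in sum over the 14 libraries. Over all libraries, T cell markers were between 0.79 and 4.29 TPM in sum, sinusoidal endothelial markers between 18.2 and 51.7, stellate cell markers between 15.1 and 97.3 and cholangiocyte markers between 3.97 and 21.0. The part of these cell types in the results below was not tested, and in whole liver fewer cells of a type and less RNA per cell cannot be told apart.

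The promoters of several members carry the short elements through which this response is known to act, and 6 windows are shown here, of 3 folding genes and the ATF4 target Asns, which rose in both genotypes, and of Syvn1 and Herpud1, whose values after ConA did not overlap between the genotypes. RefSeq promoters of the mouse build GRCm38.p6, from 250 bases before to 50 after the start of transcription, were listed for 29 of the 32 genes. Manf, Hyou1 and Atf6 are named only. Both strands were searched for the ER stress response element (CCAAT and CCACG spaced by 9 bases, read CGTGG and ATTGG on the other strand), its second form (ATTGG and CCACG spaced by 1 base), an XBP1 and ATF6 element (TGACGTG) and a C/EBP-ATF element of ATF4 targets (TGATGNAA). The ER stress response element was found in 8 of the 29 genes, which were Hspa5, Hsp90b1, Calr, Canx, Pdia6, Dnajc3, Creld2 and Syvn1, and in 0.137% of the 27025 genes with a window. The second form was found in Dnajb11 and Herpud1, and in 0.0444% of all genes. TGACGTG was found in Hspa5 among the members and in 2.22% of all genes. The C/EBP-ATF element was found in Chac1, Trib3, Asns and Herpud1, and in 4.51% of all genes. No base was shared between motifs in a window, and a match is a description of letters, not of binding. The windows lie at chr2:34771840-34772139 for Hspa5, chr15:88819396-88819695 for Creld2 and chr19:6046326-6046625 for Syvn1 on the plus strand, at chr10:86705395-86705694 for Hsp90b1 and chr6:7693160-7693459 for Asns on the minus strand, and at chr8:94386179-94386478 for Herpud1 on the plus strand. Each is written 5′ to 3′ along its gene, and capitals mark the motifs.
Hspa5: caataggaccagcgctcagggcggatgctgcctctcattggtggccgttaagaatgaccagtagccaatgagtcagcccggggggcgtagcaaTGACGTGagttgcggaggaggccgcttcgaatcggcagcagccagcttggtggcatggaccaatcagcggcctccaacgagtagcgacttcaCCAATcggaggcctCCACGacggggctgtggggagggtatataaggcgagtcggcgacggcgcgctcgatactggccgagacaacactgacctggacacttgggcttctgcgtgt
Hsp90b1: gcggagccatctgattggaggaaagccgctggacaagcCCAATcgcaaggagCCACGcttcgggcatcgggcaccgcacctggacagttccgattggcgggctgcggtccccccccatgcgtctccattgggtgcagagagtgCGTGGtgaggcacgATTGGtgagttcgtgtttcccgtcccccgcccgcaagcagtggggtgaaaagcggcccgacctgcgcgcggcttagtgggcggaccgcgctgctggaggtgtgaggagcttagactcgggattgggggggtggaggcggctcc
Creld2: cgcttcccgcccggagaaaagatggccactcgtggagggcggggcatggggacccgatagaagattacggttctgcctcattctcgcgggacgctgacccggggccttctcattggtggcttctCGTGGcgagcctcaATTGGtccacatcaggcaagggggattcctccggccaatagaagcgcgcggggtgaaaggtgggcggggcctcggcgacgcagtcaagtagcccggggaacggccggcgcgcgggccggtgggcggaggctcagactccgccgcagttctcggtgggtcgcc
Syvn1: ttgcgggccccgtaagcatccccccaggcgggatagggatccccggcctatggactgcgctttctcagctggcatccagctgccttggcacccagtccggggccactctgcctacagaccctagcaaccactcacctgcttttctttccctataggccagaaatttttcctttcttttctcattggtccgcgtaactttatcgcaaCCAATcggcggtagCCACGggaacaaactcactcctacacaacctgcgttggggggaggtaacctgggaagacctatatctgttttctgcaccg
Herpud1: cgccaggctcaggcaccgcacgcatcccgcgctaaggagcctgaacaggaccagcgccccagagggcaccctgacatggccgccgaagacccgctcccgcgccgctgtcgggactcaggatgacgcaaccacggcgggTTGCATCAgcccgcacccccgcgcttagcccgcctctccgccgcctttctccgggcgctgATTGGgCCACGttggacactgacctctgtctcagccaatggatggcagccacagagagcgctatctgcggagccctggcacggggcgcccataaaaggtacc
Asns: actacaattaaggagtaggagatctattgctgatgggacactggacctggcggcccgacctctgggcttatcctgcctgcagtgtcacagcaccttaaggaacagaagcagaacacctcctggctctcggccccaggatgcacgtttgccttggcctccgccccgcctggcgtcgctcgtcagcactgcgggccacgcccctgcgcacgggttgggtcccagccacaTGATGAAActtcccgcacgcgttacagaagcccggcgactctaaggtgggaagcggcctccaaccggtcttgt
In Hspa5 the ER stress response element ends 47 bases before the start and TGACGTG lies farther upstream, at 157 to 151 bases before it. Hsp90b1 holds the element in both orientations before the start. The Asns element lies at 23 to 16 bases before the start.

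In WT livers, ConA raised most of the ER stress genes, with the highest median for the folding genes. Of the 32 genes, 25 were called higher and 1 lower (limma, Benjamini-Hochberg adjusted p under 0.05 over 10768 genes), where 22.0% of all genes tested were called higher and 31.0% lower. The median log2 fold change of the 32 genes was 1.46, against −0.07 over all genes tested. By role, 13 of 15 folding genes, 5 of 5 ERAD and translocation genes, 2 of 5 sensors and membrane-bound factors and 5 of 7 PERK/ATF4 genes were higher, with median log2 fold changes of 2.21, 1.07, 0.39 and 1.20. The 1 gene called lower was the membrane-bound factor Creb3l3. The 32 genes together made up 0.354% to 0.386% of all TPM in WT saline livers and 1.005% to 1.40% in WT ConA livers.

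**Figure D1:**
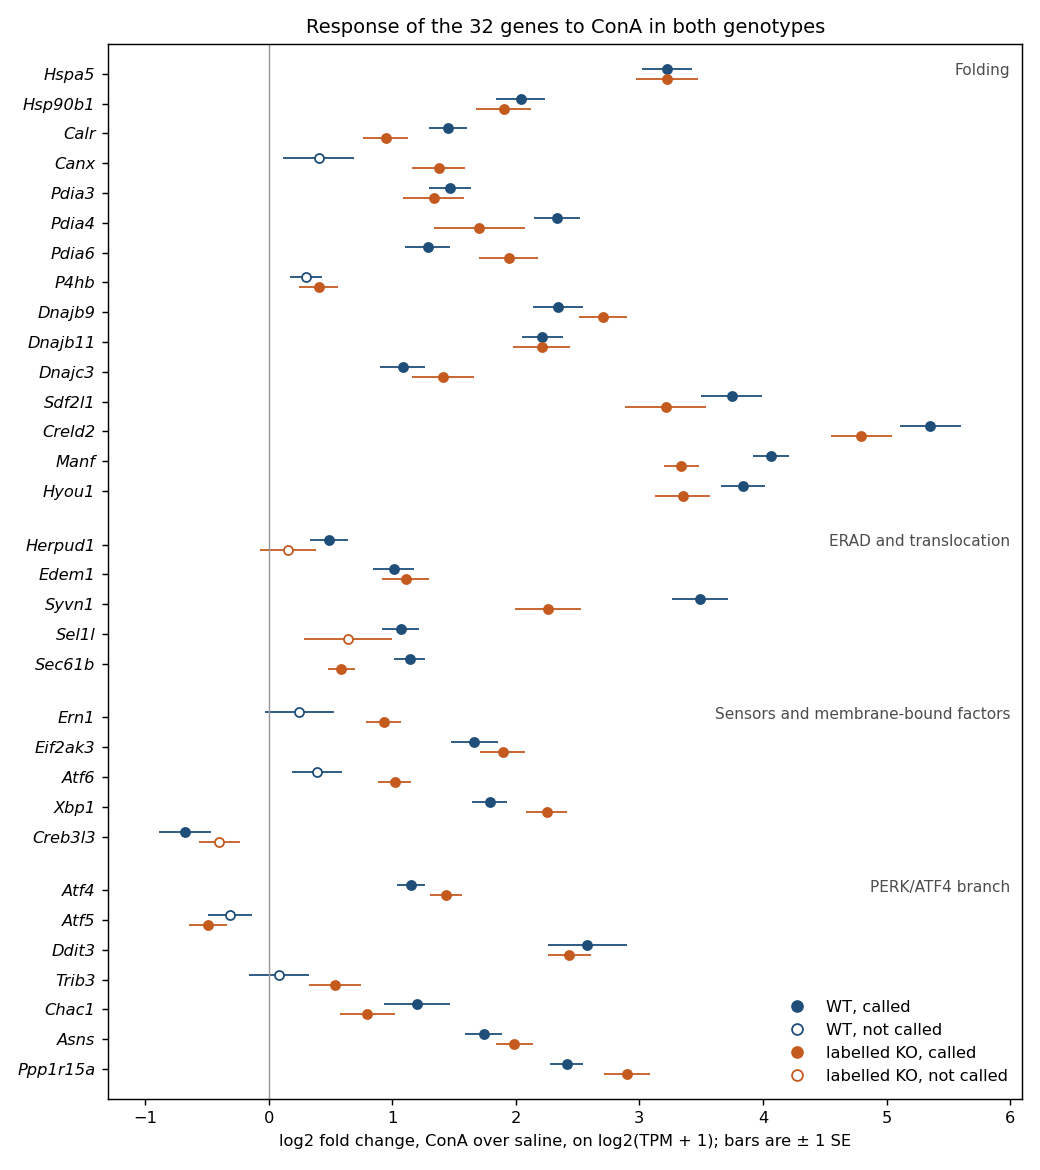
Log2 fold changes of the 32 genes after ConA over saline on log2(TPM + 1), with bars of 1 SE, in WT (blue, 4 against 3 livers) and labelled KO mice (orange, 4 against 3 livers), sorted by role; filled points were called at an adjusted p under 0.05. Creld2 had the largest change in both genotypes (5.35 and 4.80), and Creb3l3 and Atf5 lie left of 0 in both.

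Creld2, a secreted ER stress-inducible protein with disulfide isomerase activity, had the largest fold change of the 32. Its TPM was 10.7, 11.6 and 14.4 in the WT saline livers and 347, 659.6, 739.9 and 487 in the WT ConA livers. All ConA livers were above all saline livers, and replicate 3 was the highest of all 14 libraries. The log2 fold change was 5.35 ± 0.25 (SE, adjusted p 6.52e-07), a ratio of mean TPM of 45.6. Manf, a secreted neurotrophic factor held in the ER by its binding to BiP, went from 91.2, 79.6 and 82.6 to 1160, 1433, 1669 and 1495 TPM. Here too the groups lay apart, and the log2 fold change was 4.06 ± 0.14 (adjusted p 1.62e-07). By TPM, Manf moved from rank 1153 to 1320 among the 17656 genes of a library to rank 70 to 95.

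Hspa5 encodes BiP, the main ER chaperone of the Hsp70 family and a negative regulator of the 3 sensors. Its TPM was 146, 188 and 195 in WT saline and 1433, 2095, 1243 and 1933 in WT ConA livers. The groups did not overlap, the ratio of mean TPM was 9.50 and the log2 fold change was 3.22 ± 0.20 (adjusted p 2.97e-06). With ranks of 62 to 89 it stood among the most abundant mRNAs of the ConA liver, against ranks of 684 to 822 after saline. Its nucleotide exchange factor Hyou1 had 15.3, 14.8 and 15.1 and then 178, 311, 227 and 216 TPM, with a log2 fold change of 3.84 ± 0.18 (adjusted p 6.52e-07). Sdf2l1, which works with the BiP cochaperone Dnajb11, had 29.7, 19.9 and 19.96 and then 271, 355, 463 and 231 TPM, with a log2 fold change of 3.75 ± 0.25 (adjusted p 3.84e-06). Neither gene overlapped between the groups. Among the J-domain cochaperones, which activate BiP, the log2 fold changes were 2.34 for Dnajb9, 2.21 for Dnajb11 and 1.08 for Dnajc3, each called.

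Hsp90b1 (GRP94, the ER member of the Hsp90 family) went from 324, 345 and 359 to 969, 1848, 1451 and 1518 TPM, and the lectin chaperone Calr went from 601, 518 and 503 to 1241, 1658, 1743 and 1322 TPM. Both were called, with log2 fold changes of 2.04 ± 0.20 and 1.45 ± 0.15. The groups did not overlap for either gene. Canx, the membrane-bound lectin chaperone related to Calr, had 73.3, 87.7 and 90.99 TPM in WT saline and 115, 168, 61.7 and 127 in WT ConA livers and was not called (log2 fold change 0.41 ± 0.29, adjusted p 0.266). ConA replicate 3 was below every saline liver and the other 3 were above them all, and without that liver the log2 fold change was 0.68 with an adjusted p of 0.00652. Of the protein disulfide isomerases, which form and exchange disulfide bonds, Pdia3, Pdia4 and Pdia6 were called, with log2 fold changes of 1.47, 2.33 and 1.29. P4hb, the most abundant of the 15 folding genes in the saline livers at 654 to 785 TPM, had 807 to 1034 TPM after ConA. Its groups did not overlap, its log2 fold change was 0.30 ± 0.13 and it was not called (adjusted p 0.0832), while without WT ConA replicate 3 the adjusted p was 0.0489. Over the 15 folding genes, log2 fold changes in WT thus ranged from 0.30 to 5.35.

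**Figure D2:**
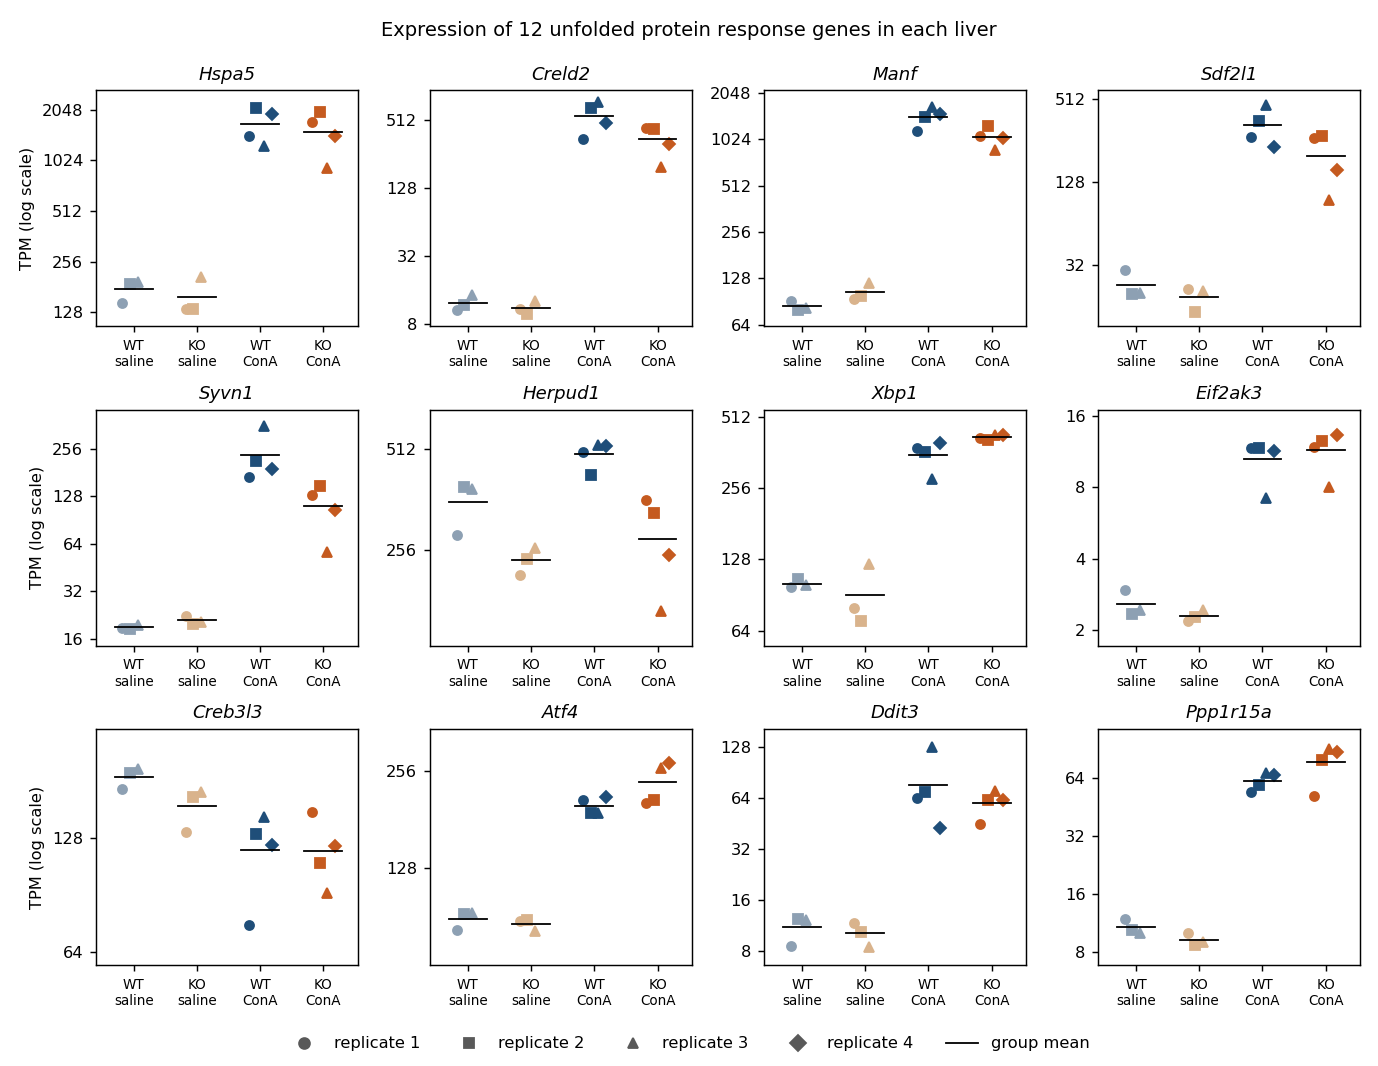
TPM of 12 of the genes in each liver, on log axes, by group (KO is the label), with the symbol giving the replicate number and the line the group mean. Hspa5, Creld2, Manf, Sdf2l1 and Syvn1 lie apart between saline and ConA in both genotypes, while KO ConA replicate 3 is the lowest KO ConA liver for Hspa5, Creld2, Manf, Sdf2l1, Syvn1 and Herpud1 and among the highest for Ddit3 and Ppp1r15a.

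All 5 ERAD and translocation genes rose in WT. Syvn1 (HRD1), the ubiquitin ligase at the centre of ERAD, had 18.8, 18.4 and 19.4 TPM in WT saline and 169.7, 213, 354 and 189.5 in WT ConA livers. The saline livers were nearly alike, all ConA livers were above them with replicate 3 the highest, and the log2 fold change was 3.49 ± 0.23 (adjusted p 3.88e-06). Its partner Sel1l went from 18.4, 20.3 and 20.1 to 36.1, 51.4, 37.6 and 45.2 TPM and Edem1, which marks misfolded glycoproteins for degradation, from 27.8, 33.7 and 35.1 to 70.7, 73.1, 50.2 and 71.8 TPM. Their log2 fold changes were 1.07 ± 0.15 and 1.01 ± 0.17, and neither gene overlapped between the groups. Herpud1, a scaffold of the Syvn1 complex, had 283, 395 and 389 TPM after saline and 501, 428, 528 and 523 after ConA. Its first saline liver was lower than the other 2, the log2 fold change was 0.49 ± 0.15 (adjusted p 0.0225), and without that liver the adjusted p was 0.0894. Sec61b, a subunit of the channel through which proteins enter the ER, had a log2 fold change of 1.14 ± 0.13 (adjusted p 7.80e-05). Only 59% of the stretches of 50 bases in its transcript are found in no other gene, so its value is uncertain, while the share was 93.3% or more for each of the other 31 genes.

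Among the sensors and membrane-bound factors, Xbp1 and Eif2ak3 rose in WT, Creb3l3 fell, and Ern1 and Atf6 were not called. Xbp1, whose gene-level value sums the spliced and unspliced forms, had 97.5, 106 and 100.1 TPM in WT saline and 378, 365, 279 and 396 in WT ConA livers. All ConA livers were above all saline livers and the log2 fold change was 1.79 ± 0.14 (adjusted p 1.14e-05). Eif2ak3 (PERK) went from 2.96, 2.34 and 2.44 to 11.7, 11.8, 7.22 and 11.4 TPM (log2 fold change 1.66 ± 0.19, adjusted p 8.22e-05). Again the groups did not overlap, and ConA replicate 3 was the lowest. Ern1 (IRE1) was near the detection filter, with 1.83, 1.14 and 1.06 TPM after saline and 3.01, 2.60, 0.82 and 1.19 after ConA, and the groups overlapped. Atf6 had 8.49, 12.1 and 11.5 and then 15.4, 16.4, 9.89 and 16.1 TPM. ConA replicate 3 fell among the saline livers, and the log2 fold change was 0.39 ± 0.20 (adjusted p 0.135), or 0.55 with an adjusted p of 0.00832 without it. Creb3l3 (CREBH), a membrane-bound factor of liver and gut that controls acute-phase and lipid genes, went the other way, from 172, 189 and 193 to 75.6, 131, 145 and 122 TPM. Every ConA liver was below every saline liver, and the log2 fold change was −0.68 ± 0.21 (adjusted p 0.0219). The call was lost when WT saline replicate 2 or 3 was left out (adjusted p 0.0694 and 0.0745) and when the 2 were averaged. It was also lost after each library was rescaled by its median ratio to the others, which left 0 of the 32 genes called lower in WT.

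In the PERK/ATF4 branch, Ddit3, Ppp1r15a, Asns, Chac1 and Atf4 rose in WT, and Atf5 and Trib3 were not called. Ddit3 (CHOP) had 8.51, 12.3 and 12.2 TPM in WT saline and 64.1, 68.8, 127 and 42.2 in WT ConA livers. The ConA livers spread widely, from 42.2 in replicate 4 to 127 in replicate 3, yet all lay above the saline livers (log2 fold change 2.58 ± 0.32, adjusted p 1.47e-04). Ppp1r15a (GADD34), the regulatory subunit that brings a phosphatase to eIF2a and so restores translation, went from 11.8, 10.4 and 9.99 to 53.6, 58.9, 67.5 and 66.01 TPM, a log2 fold change of 2.41 ± 0.13 (adjusted p 1.55e-06). Asns, which makes asparagine and is a classical ATF4 target, was almost silent after saline, with 0.38, 0.09 and 0.09 TPM, and had 3.59, 2.72, 2.62 and 2.91 TPM after ConA. Its groups did not overlap, and its ratio of mean TPM, 15.9, stands beside a log2 fold change on log2(TPM + 1) of 1.74 ± 0.15, which the added 1 holds down at such low TPM. In both genotypes Asns passed the filter of TPM 1 only through its ConA livers, so it could hardly be tested except as higher. Its call is included in the counts of genes called higher in each genotype. Atf4 mRNA went from 82.8, 92.4 and 93.2 to 209, 189, 189.9 and 213 TPM, with a log2 fold change of 1.15 ± 0.11 (adjusted p 3.76e-05) and no overlap. Chac1, which degrades glutathione and is induced by ATF4 and CHOP, had a log2 fold change of 1.20 ± 0.27 (adjusted p 0.00430). Trib3, a pseudokinase induced by CHOP, had 8.18 to 15.3 TPM after saline and 7.87 to 13.5 after ConA with a log2 fold change of 0.083 ± 0.24 (adjusted p 0.794). Atf5, a factor translated like ATF4, had 139, 220.4 and 211 and then 133, 153, 171 and 144 TPM with a log2 fold change of −0.31 ± 0.18 (adjusted p 0.166). The groups overlapped through the first saline liver, and without it Atf5 was called lower, at −0.52 with an adjusted p of 0.0210.

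In the livers labelled KO, ConA raised 28 of the 32 genes and lowered 1, where 33.9% of the 10988 genes tested were called higher and 30.7% lower. The median log2 fold change of the 32 genes was 1.57, against 0.07 over all genes tested. All 15 folding genes were higher, as were 3 of 5 ERAD and translocation genes, 4 of 5 sensors and membrane-bound factors and 6 of 7 PERK/ATF4 genes. Of the 32, 23 were called higher in both genotypes, 5 only in KO, 2 only in WT, and Creb3l3 and Atf5 were called lower in 1 genotype each. A call in 1 genotype and not in the other does not show a difference between them, which is tested further below. Creld2 again had the largest fold change, from 10.8, 9.63 and 12.6 TPM in KO saline to 441, 429.7, 197 and 318 in KO ConA livers, a log2 fold change of 4.80 ± 0.25 (adjusted p 7.43e-08). Hspa5 went from 134, 134 and 206 to 1739, 1976, 919 and 1422 TPM, a ratio of mean TPM of 9.56 and a log2 fold change of 3.22 ± 0.25 (adjusted p 1.20e-06). Neither gene overlapped between the groups, and KO ConA replicate 3 was the lowest for both. The log2 fold changes of Hyou1, Manf and Sdf2l1 were 3.35, 3.34 and 3.21.

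The genes called higher in KO and not in WT were Canx, P4hb, Ern1, Atf6 and Trib3. Canx had 51.8, 45.1 and 66.7 TPM in KO saline and 182, 165, 94.6 and 139.5 in KO ConA livers, with a log2 fold change of 1.37 ± 0.21 (adjusted p 2.10e-04). Ern1 had 0.82, 0.92 and 1.13 and then 2.78, 3.02, 2.50 and 2.61 TPM, and Atf6 had 7.77, 7.55 and 8.43 and then 17.7, 16.5, 15.5 and 18.6 TPM. Neither overlapped, and the log2 fold changes were 0.93 ± 0.14 and 1.02 ± 0.13. Of the KO saline livers only that with 1.13 TPM reached the filter of TPM 1 for Ern1, so Ern1 was tested through its ConA livers. P4hb and Trib3 were close to the threshold, at adjusted p of 0.0458 and 0.0447. P4hb, whose groups overlapped, lost its call when KO saline replicate 1 or 2 or KO ConA replicate 1, 2 or 4 was left out. Trib3 lost its call when KO saline replicate 1 or KO ConA replicate 3 or 4 was left out. Both also lost it with no filter, after rescaling and with the replicate number as a block, and Trib3 in a fit of all 14 libraries. Over the alternatives the adjusted p reached 0.183 for P4hb and 0.220 for Trib3. Herpud1 had 215, 240.4 and 259 TPM in KO saline and 360.3, 329, 168 and 246 in KO ConA livers, with livers on both sides of the saline values and a log2 fold change of 0.16 ± 0.23 (adjusted p 0.557). Leaving out KO ConA replicate 3 gave 0.37 (adjusted p 0.0540). Sel1l had 15.4, 15.7 and 16.9 and then 38.5, 40.1, 11.1 and 24.3 TPM. ConA replicate 3 was below all saline livers while the other 3 were above them, and the log2 fold change was 0.64 ± 0.35 (adjusted p 0.131), or 1.02 with an adjusted p of 9.66e-04 without it. Xbp1 went from 79.5, 70.4 and 122 to 420.0, 410.0, 429.8 and 432 TPM, a log2 fold change of 2.25 ± 0.17 (adjusted p 9.69e-07), with all ConA livers above all saline livers and close to each other.

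Of the 7 PERK/ATF4 genes in the KO livers, 6 were called higher, with Trib3 losing its call as above, and Atf5 lower. Ppp1r15a went from 10.01, 8.68 and 9.02 to 51.5, 79.3, 89.6 and 86.9 TPM (log2 fold change 2.90 ± 0.19, adjusted p 3.29e-07) and Ddit3 from 11.8, 10.3 and 8.40 to 44.6, 61.99, 69.9 and 61.7 TPM (log2 fold change 2.43 ± 0.17, adjusted p 6.29e-07). All ConA livers lay above all saline livers for both. Atf4 had 88.05, 88.4 and 81.99 and then 203, 208, 262 and 271 TPM, with a log2 fold change of 1.43 ± 0.13 (adjusted p 4.26e-06) and ConA replicates 3 and 4 the highest. Asns and Chac1 had log2 fold changes of 1.99 ± 0.15 and 0.80 ± 0.22, and the call of Chac1 was lost without KO saline replicate 2 (adjusted p 0.0531). Atf5 was called lower, from 182, 221 and 172 to 164, 139.5, 105 and 139.6 TPM, with a log2 fold change of −0.49 ± 0.16 (adjusted p 0.0175). Every ConA liver was below every saline liver, and without KO saline replicate 2 the adjusted p was 0.0845. Creb3l3 had 132, 163 and 169 and then 149.6, 109.9, 91.5 and 122 TPM and was not called (log2 fold change −0.40 ± 0.17, adjusted p 0.0531). Creb3l3 passed without KO saline replicate 1 or KO ConA replicate 1 (adjusted p 0.0360 and 0.0125), and after the same rescaling of the libraries.

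**Figure D3:**
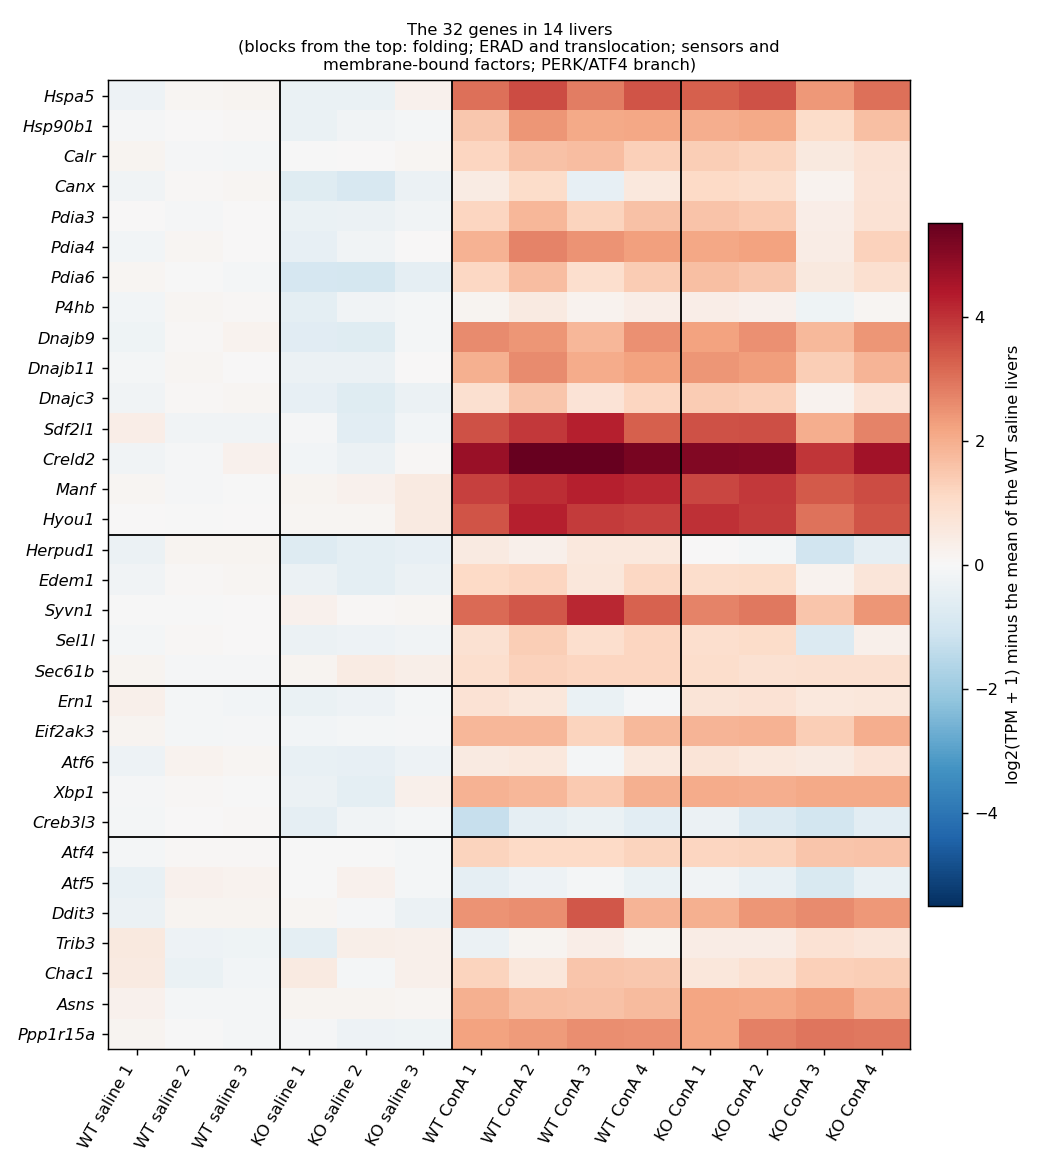
Log2(TPM + 1) of the 32 genes in each of the 14 livers minus the mean of the 3 WT saline livers (red above, blue below), with lines between the groups and the roles. The saline livers of both genotypes are near 0, Creld2, Manf, Hyou1, Sdf2l1, Hspa5 and Syvn1 are the reddest rows after ConA, and Creb3l3 and Atf5 are the rows that are mostly blue after ConA in both genotypes.

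Other genes of the same pathways, from lists of which no gene is among the 32, were counted in the same way. Over all genes tested, 22.0% were called higher and 31.0% lower in WT, and 33.9% higher and 30.7% lower in KO. No list was tested as a set. Of 22 genes of the translocon, signal recognition and signal peptidase, 16 were called higher and 0 lower in WT and 17 and 0 in KO, with the signal recognition particle receptor subunits Srprb (log2 fold change 2.19 in WT) and Srpr (2.02 in KO) the largest. Of 18 other folding genes, 10 were higher and 1 lower in WT and 8 were higher and 4 lower in KO. Ero1a, the oxidase that supplies disulfide bonds, led both, at 3.22 and 4.18, the peroxiredoxin Prdx4 was lower in both (−0.38 and −0.51), and the prolyl isomerase Fkbp2 was lower in KO (−1.21). Of 16 other ERAD genes, 8 were higher in WT and 12 in KO. Derl3, a Derlin of the ERAD channel, had the largest changes (4.21 and 2.83).

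The counts of the next lists stand beside the same shares over all genes, 22.0% higher and 31.0% lower in WT and 33.9% and 30.7% in KO. Of the other ATF4 targets that were tested, 10 of 16 were higher and 2 lower in WT, and 14 of 17 were higher and 1 lower in KO. Atf3, a stress-induced repressor, had the largest rise in both (4.04 and 5.84), while the hormone Fgf21 was lower in WT (−1.23) and the serine enzyme Shmt2 lower in KO (−0.36). Of 11 aminoacyl-tRNA synthetases of the ATF4 program, 9 were higher and 0 lower in each genotype. Wars, which is also induced by interferon gamma, led with 3.39 and 2.69. Of 16 other regulators of eIF2a and the response, 9 were higher and 4 lower in WT and 10 and 1 in KO, from the adaptor Nck1 (2.28 and 3.01) down to the kinase Map3k5 (−0.82 in WT) and the ER membrane protein Tmbim6, lower in both (−0.75 and −0.67). Creb3l3 is known to act on acute-phase and lipid genes, and of the CREBH targets tested 3 of 7 were higher and 3 lower in WT and 3 of 6 higher and 2 lower in KO. The pentraxin Apcs was the highest (2.75 and 2.86) and the desaturase Fads1 the lowest (−1.80 and −1.67).

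After ConA, none of the 32 genes was called between the livers labelled KO and WT. Over the 10519 genes tested, 0.342% were called higher and 0.0856% lower in KO (36 and 9 genes, 80% of them higher, or 58.6% higher after each library was rescaled by its median ratio to the others). By limma, 9 of the 32 genes had an unadjusted p under 0.05, as did 1753 of all genes. The median log2 fold change was −0.17 for the 32 genes and 0.05 for all genes tested. The sign differed by role. The KO value was lower for 14 of 15 folding and 5 of 5 ERAD and translocation genes, with medians of −0.25 and −0.70, and higher for 5 of 5 sensors and membrane-bound factors (4 of 5 after rescaling) and 4 of 7 PERK/ATF4 genes, with medians of 0.25 and 0.23. Without KO ConA replicate 3 the medians were −0.06 for folding, with 10 of 15 genes lower, and −0.32 for ERAD and translocation, with 5 of 5 lower. With both ConA replicates 3 left out they were −0.12 and −0.38. Part of this was present after saline, where the KO value was lower for 12 of 15 folding genes (median −0.22). There it was also lower for 3 of 5 ERAD and translocation genes (−0.28), 5 of 5 sensors and membrane-bound factors (−0.25) and 3 of 6 PERK/ATF4 genes (−0.01). The median over all genes tested was −0.10 after saline.

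The groups did not overlap for Herpud1 and Syvn1, which were lower in KO, and for Xbp1 and Trib3, which were higher, where 4.11% of all genes were lower and 6.37% higher without overlap. Herpud1 had 501, 428, 528 and 523 TPM in the WT ConA and 360.3, 329, 168 and 246 in the KO ConA livers. The highest KO liver was below the lowest WT liver, and the log2 fold change was −0.89 ± 0.21 (adjusted p 0.0766, 95% interval −1.37 to −0.42). Syvn1 had 169.7, 213, 354 and 189.5 and 129, 149, 56.6 and 105 TPM. The same held, with a log2 fold change of −1.09 ± 0.30 (adjusted p 0.113, interval −1.76 to −0.43). A fit of all 14 libraries called both lower, with adjusted p of 0.0184 and 0.0245. That fit called 623 of 11327 genes, against 45 of 10519 in the main comparison. With both ConA replicates 3 left out, the log2 fold changes were −0.65 for Herpud1 and −0.58 for Syvn1. Xbp1 had 378, 365, 279 and 396 TPM in WT and 420.0, 410.0, 429.8 and 432 in KO livers, a narrow gap beside the range within WT (log2 fold change 0.27 ± 0.13, adjusted p 0.335, or 0.16 without WT ConA replicate 3). Trib3 had 7.87, 11.5, 13.5 and 11.6 and 14.03, 13.7, 18.4 and 16.7 TPM (log2 fold change 0.48 ± 0.18, adjusted p 0.221). Its gap, from 13.5 TPM in WT to 13.7 in KO, was also narrow beside the range within WT.

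**Figure D4:**
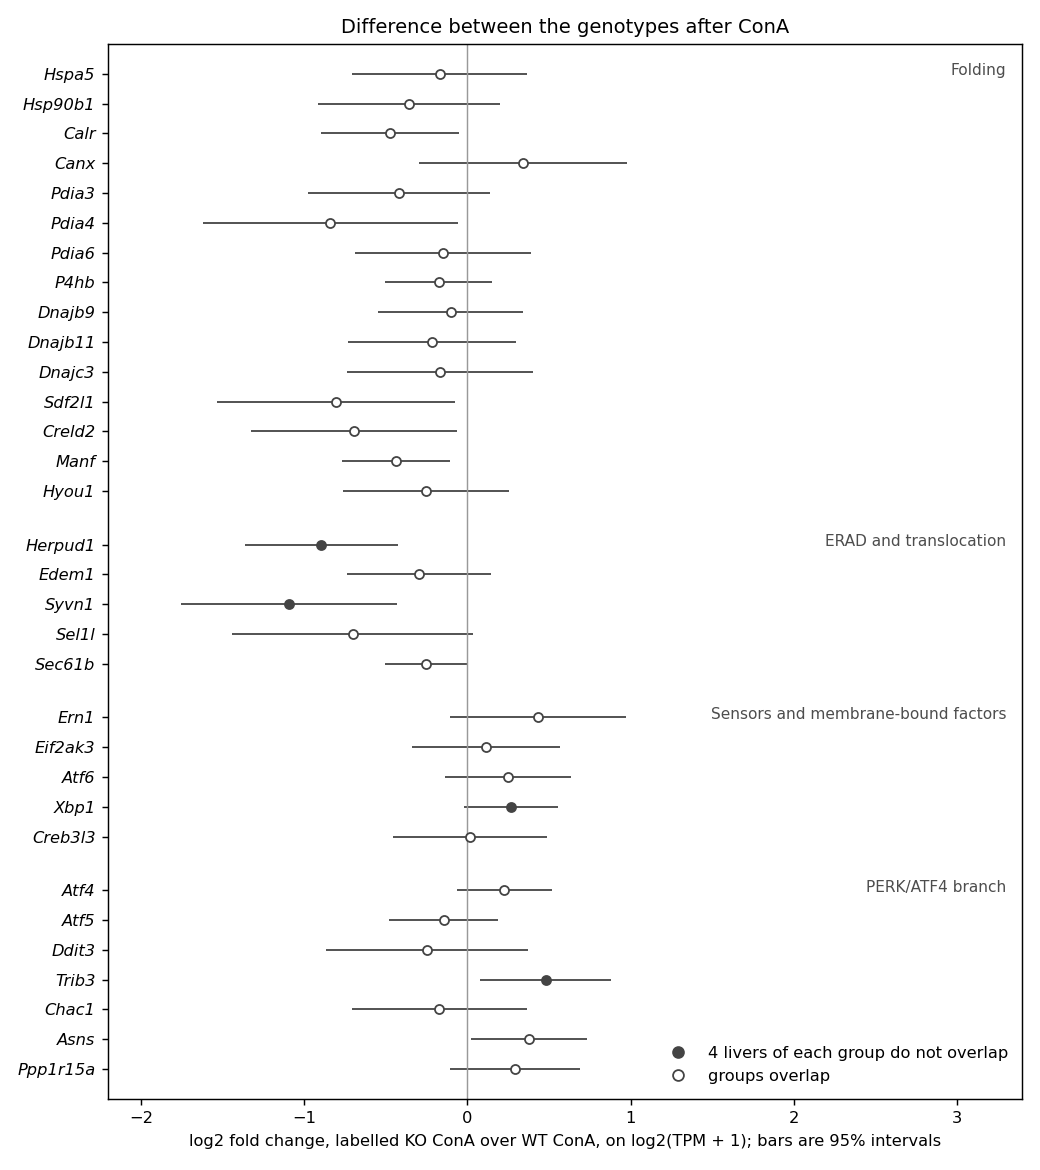
Log2 fold changes of the 32 genes in the 4 labelled KO ConA livers over the 4 WT ConA livers, with 95% intervals from limma, sorted by role. Filled points are the 4 genes whose groups do not overlap, Herpud1 and Syvn1 left of 0 and Xbp1 and Trib3 right of it, and none of the 32 was called.

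Of the 15 folding genes, 5 had 95% intervals between the genotypes that lay below 0, before adjustment over all genes, and the groups overlapped for each of the 15. Hspa5 had 1676 ± 403 TPM (SD, n = 4) in WT ConA and 1514 ± 457 TPM (SD, n = 4) in KO ConA livers, and its log2 fold change of −0.17 had an interval of −0.71 to 0.37 and was 0.050 without KO ConA replicate 3. The 5 genes were Manf (log2 fold change −0.44, interval −0.77 to −0.10), Calr (−0.47, −0.90 to −0.052), Creld2 (−0.70, −1.33 to −0.065), Sdf2l1 (−0.81, −1.53 to −0.078) and Pdia4 (−0.84, −1.62 to −0.060), with adjusted p of 0.185, 0.248, 0.253, 0.251 and 0.263. With both ConA replicates 3 left out, the log2 fold changes of these 5 genes were −0.27, −0.25, −0.30, −0.31 and −0.43. Canx was the folding gene with a log2 fold change above 0 (0.34 ± 0.29, adjusted p 0.603), which was 0.064 without WT ConA replicate 3. In the PERK/ATF4 branch Atf4 and Asns had log2 fold changes of 0.23 ± 0.13 and 0.38 ± 0.16, and Ddit3 of −0.25 ± 0.28 (adjusted p 0.433, 0.271 and 0.716). Without WT ConA replicate 3 that of Ddit3 was 0.041.

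KO ConA replicate 3 was the lowest of the 4 KO ConA livers for all 15 folding genes, 4 of 5 ERAD and translocation genes and 4 of 5 sensors and membrane-bound factors, and the highest for 4 of 7 PERK/ATF4 genes. Summed over the 15 folding genes, the KO ConA livers had 9547, 9738, 5265 and 7256 TPM, against 8035, 11835, 9978 and 10104 in the WT ConA livers and 2489 to 2601 in WT saline. KO ConA replicate 3 was thus the lowest ConA liver, but above every saline liver. Summed over the 5 ERAD and translocation genes, the KO ConA livers had 873, 840.2, 536 and 694 TPM, against 1052, 1115, 1294 and 1156 in WT. All WT livers lay above all KO livers on this sum. The sums did not overlap after saline either, at 506 to 603 TPM in WT and 437 to 501 in KO. Herpud1, the most abundant of the 5 in the saline livers, had 283 to 395 TPM of this in WT and 215 to 259 in KO. After ConA it had 428 to 528 TPM in WT and 168 to 360 in KO. Of the 5 genes, 3 were lower in KO saline without overlap, while the other 2, Syvn1 and Sec61b, were higher without overlap. For the 7 PERK/ATF4 genes the sums were 485, 512, 557 and 586 TPM in KO ConA and 478, 488, 580.2 and 488 in WT ConA livers, with overlapping groups. In the same liver the hepatocyte markers summed to 59864 TPM and the neutrophil markers to 743, both within the range of the other KO ConA livers, while the cholangiocyte markers summed to 21.0 TPM, above their 9.11 to 13.9, and the Kupffer cell and macrophage markers to 24.5 TPM, above their 9.44 to 18.8. Over the groups, stellate cell markers summed to 20.7 to 59.97 TPM for WT and 49.5 to 97.3 TPM for KO livers after ConA, and T cell markers to 1.15 to 2.47 and 1.79 to 4.29. The part of these cell types in the low folding values and in the differences between the genotypes was not tested.

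**Figure D5:**
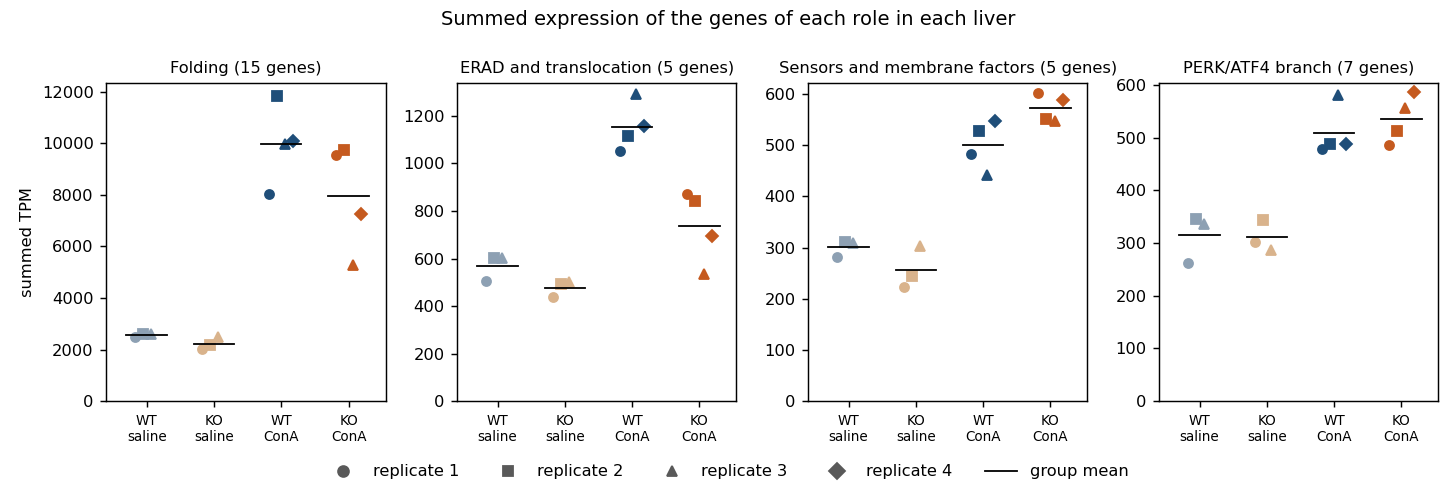
Summed TPM of the genes of each role in each liver, by group (KO is the label), with the symbol giving the replicate number and the line the group mean; each axis starts at 0. After ConA all WT livers lie above all KO livers for ERAD and translocation (1052 to 1294 against 536 to 873 TPM), and the folding sum of KO ConA replicate 3 (5265 TPM) is the lowest of the ConA livers. The saline livers also lie apart for ERAD and translocation (506 to 603 TPM in WT against 437 to 501 in KO). Herpud1 alone had 283 to 395 TPM of this sum in WT saline and 215 to 259 in KO saline, and Syvn1 and Sec61b were higher in KO saline.

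The difference between the responses of the 2 genotypes to ConA was tested as an interaction over all 14 libraries, and 0 of the 32 genes passed, where 2.64% of 11327 genes were called higher and 2.14% lower. By limma, 5 of the 32 had an unadjusted p under 0.05, against 2862 of all genes. The 3 with the smallest p were Manf (log2 difference of the responses −0.73 ± 0.20, adjusted p 0.0530), Sec61b (−0.55 ± 0.16, adjusted p 0.0534) and Syvn1 (−1.23 ± 0.39, adjusted p 0.0777), all with the smaller rise in the livers labelled KO. Manf and Sec61b passed without WT ConA replicate 1 (adjusted p 0.0320 and 0.0356), and Syvn1, Sec61b and Canx passed with both ConA replicates 3 left out (log2 differences −0.72, −0.54 and 0.88, adjusted p 0.0233, 0.0439 and 0.0338), the difference of Syvn1 being smaller than with those livers. With both left out, 1591 of 11270 genes passed, against 541 of 11327 in the main fit. Canx and Atf6 had the larger rise in KO (0.97 ± 0.40 and 0.63 ± 0.24), with adjusted p of 0.145 and 0.125. Xbp1 passed without KO saline replicate 3 (0.69, adjusted p 0.0452, against 0.46 and 0.225 with it). For Hspa5 the log2 difference was 0.0024, with a 95% interval of −0.76 to 0.76. By role, the median log2 differences were −0.13 for folding (9 of 15 below 0) and −0.43 for ERAD and translocation (4 of 5 below 0). They were 0.46 for sensors and membrane-bound factors (5 of 5 above 0) and 0.25 for PERK/ATF4 genes (4 of 7 above 0). The median over all genes tested was 0.14. Among the other lists the interaction called 7 genes. Of these Ero1a (0.96), Dnajc1 (0.86), Spcs1 (1.24) and Atf3 (1.80) rose more in KO, and Txndc11 (−1.03), Fkbp2 (−0.92) and Fkbp11 (−1.78) rose less or fell. Over all genes 541 were called in the interaction. That number was 27 without WT saline replicate 2, 22 without replicate 3, 28 with both averaged and 33 without KO saline replicate 1. Whether the 7 genes passed under those settings is not reported here.

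Between the saline livers, 31 of the 32 genes were tested, since Asns was under 1 TPM in all of them, and 4 were called lower and 0 higher in the livers labelled KO. Over the 10459 genes tested, 6.30% were called higher and 12.9% lower (32.8% of calls higher, or 61.8% after rescaling, which moved the median of all genes from −0.10 to 0.00). The 4 genes were Canx, Pdia6, Dnajc3 and Herpud1. Pdia6 had 164, 150.0 and 140.1 TPM in WT saline and 78.1, 77.1 and 106 in KO saline livers, with no overlap and a log2 fold change of −0.80 ± 0.14 (adjusted p 0.0181). Canx had 73.3, 87.7 and 90.99 and 51.8, 45.1 and 66.7 TPM (−0.63 ± 0.16, adjusted p 0.0350), Dnajc3 had 45.8, 54.6 and 56.1 and 37.2, 32.3 and 41.05 TPM (−0.49 ± 0.12, adjusted p 0.0341), and Herpud1 had 283, 395 and 389 and 215, 240.4 and 259 TPM (−0.56 ± 0.15, adjusted p 0.0401). In each the highest KO liver was below the lowest WT liver. Summed markers of other cells stood apart or at other levels in the same livers. In WT and KO saline, sinusoidal endothelial markers summed to 20.2 to 27.5 and 31.7 to 51.7 TPM, cholangiocyte markers to 3.97 to 5.39 and 6.16 to 15.3, T cell markers to 0.79 to 1.25 and 1.67 to 2.36, stellate cell markers to 15.1 to 59.9 and 55.6 to 95.4, and Kupffer cell and macrophage markers to 50.7 to 82.1 and 22.9 to 52.1. The first 3 of these did not overlap between the groups, and their part in the 4 calls was not tested. Over the 31 genes 10 were lower and 4 higher without overlap, where 29.2% and 13.0% of all genes were. None of the 4 was called with the nearly alike WT saline replicates 2 and 3 averaged, or without either of them, or without KO saline replicate 1, and without KO saline replicate 2 Pdia6 alone was called. After rescaling, Pdia6 and Canx were called lower, and Manf (0.41, adjusted p 0.0367) and Sec61b (0.43, adjusted p 0.0402) higher. KO saline replicate 3 was the highest KO saline liver for 14 of 15 folding genes, and without it 10 of the 31 genes were called lower. Over all genes 2739 of 10586 were then called in either direction, against 2009 of 10459 in the main comparison.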

How the data were processed

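Liver RNA of 14 mice was sequenced on a BGISEQ-500 (single reads, 50 bases), 1 library per mouse. The authors deposited TPM values per gene, rounded to 2 decimals. The submitters' processing notes name Bowtie2, RSEM 1.3.1 and GRCm38.p6, while the study's methods name STAR and HTSeq. TPM keeps no depth, so the depth of each library is unknown and no counting interval is given. A gene was tested if its TPM reached 1 in 3 libraries (4 between the ConA groups), the size of the smaller group. Tests used limma 3.58.1 in R 4.3.3 (lmFit and eBayes with trend) on log2(TPM + 1), with Benjamini-Hochberg adjustment over all genes tested. The 2 groups of a comparison were fitted alone, and the interaction used all 14 libraries. The scripts were tested on simulated data. All 32 genes are named. Of other lists, the called genes with the largest rise or fall, or called in the interaction, are named. Members and lists were chosen with earlier results of these data known. Promoters are from RefSeq GRCm38.p6. Alternatives were another pseudocount (0.1), filter (TPM of 5, or none), scaling between libraries, all libraries in 1 fit, a replicate block, the averaging of WT saline replicates 2 and 3, and each library left out. Leaving out both ConA replicates 3 was added after seeing the data. Protein sequences were not analysed here. The genes called lower in the list of other ERAD genes after ConA are not reported here.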

Additional observations from a re-analysis of the deposited data

Results flagged for a closer look

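In 64 groups of 4 livers (32 genes in the WT ConA and the KO ConA livers), the highest or lowest liver stood apart from the other 3 by Dixon's test on the log2 scale in 3 groups, all of them the third WT ConA liver. Chance flags about 1 in 20 groups, and genes of 1 library are not independent. Edem1, which marks glycoproteins for degradation, had 50.2 TPM there, against 70.7 to 73.1 in the other 3 livers. Eif2ak3, the sensor PERK, had 7.22 TPM, against 11.4 to 11.8. The sensor Atf6 had 9.89 TPM, against 15.4 to 16.4. What sets this liver apart was not tested.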

How the results depend on the processing

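No call turned its direction under any alternative run. Of the 26 genes called in WT after ConA, 24 were called under every alternative that tested them, up to 14. The same held for 25 of 29 in KO, up to 13. Asns in WT, and Asns and Ern1 in KO, were among these but were not tested with the filter at TPM 5. With each library left out in turn, 25 to 29 genes were called in WT, against 26 to 29 for KO. Between the genotypes after ConA the number was 0 in the main comparison and with each library left out, and 2 in a fit of all 14 libraries. That fit called 623 of 11327 genes. In saline, 4 genes were called, against 1 with no filter on low values, 0 in a fit of all 14 libraries, 0 after averaging WT saline replicates 2 and 3, and 0 to 10 with each library left out. The 10 came with 2739 of 10586 genes called. The interaction called 0 genes, against 2 with a filter at TPM 5, 1 after rescaling, 3 with both ConA replicates 3 left out and 0 to 2 with each library left out. The 3 came with 1591 of 11270 genes called. The cause of these changes was not tested.

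With a replicate block the number of genes called was 25 in WT after ConA (without Herpud1), 28 in KO after ConA (without P4hb and Trib3, with Sel1l), 0 between the genotypes after ConA, 5 in saline (with Dnajb9) and 0 in the interaction. Deviations of same-numbered livers from their group means correlated between −0.19 and 0.41, not all over 0.1, so the numbers were not taken as pairs. Low genes such as Asns and Ern1 are limited by the added 1 and the unknown depth, Xbp1 by the sum of its spliced and unspliced forms, and Sec61b by the sequence it shares with other genes.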

Other observations

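Among pathway genes outside the 32, the saline livers labelled KO had more genes called lower than higher in some lists, where 12.9% of all genes tested were called lower and 6.30% higher. Of 22 genes of the translocon and signal peptidase, 6 were lower and 1 was higher, of 16 other ERAD genes 3 were lower and 0 higher, and of 15 other regulators of eIF2a and the response 5 were lower and 0 higher. Over all genes that balance turned with rescaling, to 1024 higher and 634 lower, and the 2009 genes called became 51 without WT saline replicate 2, 45 without replicate 3 and 49 with both averaged. The counts of these lists were not recomputed under those settings. The other folding genes had 2 in each direction of 18. Of the other ATF4 targets, 2 of 12 tested were higher and 0 lower. Of 11 aminoacyl-tRNA synthetases 1 was higher and 1 lower, and of 7 CREBH targets 0 were called. After ConA none of these genes was called between the genotypes. Derl3 had the lowest value of the ERAD genes there, at −2.18 on the log2 scale (limma, adjusted p 0.164), and it was named after its values were seen.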
